A study of Mus musculus with 9 samples.

Results

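The genes described here encode voltage-gated sodium, calcium and potassium channels of neurons and their auxiliary subunits. A list of 35 such genes was chosen by name, and all probe sets annotated to the symbol of such a gene alone were read from the array table. That gave 95 of the 45037 probe sets tested, for 34 of the 35 genes. Cacnb3, a calcium channel beta subunit gene, matched no probe set annotated to its symbol alone. Probe sets annotated to several symbols were not matched to any gene. The list holds 4 pore subunit genes and 3 beta subunit genes of sodium channels. For calcium channels it holds 7 pore subunit genes, 4 beta subunit genes and 3 alpha2delta subunit genes. A further 12 genes encode potassium channel pores or the cation channel HCN2, and 2 encode potassium channel beta subunits.

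The tissue was the brain hemisphere without the cerebellum from untreated, experimentally naive male mice aged 11 ± 1 weeks. Of the 3 strains, BALB/cJ and C57BL/6ByJ are inbred, and the third, B6By.C.132.54, is by its name a line of the C57BL/6By kind into which DNA of BALB/c was bred. Each array held 1 pool of 10 hemispheres, left or right in alternation, and each strain had 3 arrays, so that a value averages over the mice of a pool and B6By.C.132.54 stands for 1 line. No allele, transgene or treatment other than strain differed between the groups by the labels. In tissue made of many cell types, fewer cells of a type and less RNA per cell cannot be told apart.

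Voltage-gated channels open and close with the membrane potential. Sodium channels carry the rising phase of the action potential, potassium channels bring the membrane back to rest and set firing rate, and calcium channels couple firing to transmitter release and gene expression. The pore-forming subunits conduct the ions, and beta, alpha2delta and similar subunits set how many channels reach the membrane and how fast they open and close. In brain these genes are expressed mainly by neurons, each with its own pattern over regions and cell types.

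The level of a probe set is given as the log2 of its signal intensity, and a strain difference as a difference of log2 means, where 1 stands for a 2-fold change. A difference was called where limma, fitted to all 45037 probe sets and all 9 arrays, gave a Benjamini-Hochberg adjusted p under 0.05. Arrays were alike in their median intensity (15.49 to 15.99) and in the range of their values, and B6By.C.132.54 replicate 3 had the narrowest interquartile range (2.73, against 2.84 to 2.98 on the others). Of the 95 channel probe sets, 74 lay at or above the median level of all probe sets (3.97) and 21 below it, where signal is close to background. The brightest probe set of every one of the 34 genes lay above that median. Levels of different probe sets are not compared, since probes differ in brightness. All 10 neuron markers examined lay above the same median, and 5 of 8 cerebellum markers, a region the labels leave out, lay below it.

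Scn4b was the 1 channel gene with a strain difference that passed. It encodes the beta-4 subunit of sodium channels, a membrane protein linked to the pore by a disulfide bond and known for promoting resurgent sodium current. It was measured by 1 probe set (1434008_at, chromosome 9). In C57BL/6ByJ its 3 arrays read 8.47, 8.53 and 8.49. In BALB/cJ they read 7.25, 7.59 and 7.63, and in B6By.C.132.54 they read 8.21, 8.38 and 8.22. The strains did not overlap: all BALB/cJ arrays lay far below the others, and the B6By.C.132.54 arrays lay just below those of C57BL/6ByJ.

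Scn4b fell by 1.01 ± 0.109 (SE) on the log2 scale in BALB/cJ against C57BL/6ByJ, from a mean of 8.50 ± 0.033 to 7.49 ± 0.211 (SD, n = 3 each; limma adjusted p = 0.000561). That is a 2.01-fold lower signal, with a 95% interval of the log2 difference from -1.25 to -0.76, and it ranked as number 153 of 45037 probe sets by p-value. B6By.C.132.54, at 8.27 ± 0.0958 (SD, n = 3), was 1.72-fold higher than BALB/cJ (log2 difference 0.78 ± 0.109, SE; limma adjusted p = 0.00344). Against C57BL/6ByJ it differed by -0.22 ± 0.109 (SE; interval -0.46 to 0.02), which did not pass (limma adjusted p = 0.915). These comparisons share arrays, so the first and the second are not independent. Scn4b passed in both BALB/cJ comparisons under all 16 alternative settings of each, with differences from -1.08 to -0.88 in the first and from 0.66 to 0.86 in the second. With 1 probe set for the gene, no second reading of its transcript was at hand. The probe sequences were not examined, so whether these probes read the BALB/cJ and C57BL/6ByJ alleles alike was not tested.

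**Figure D1:**
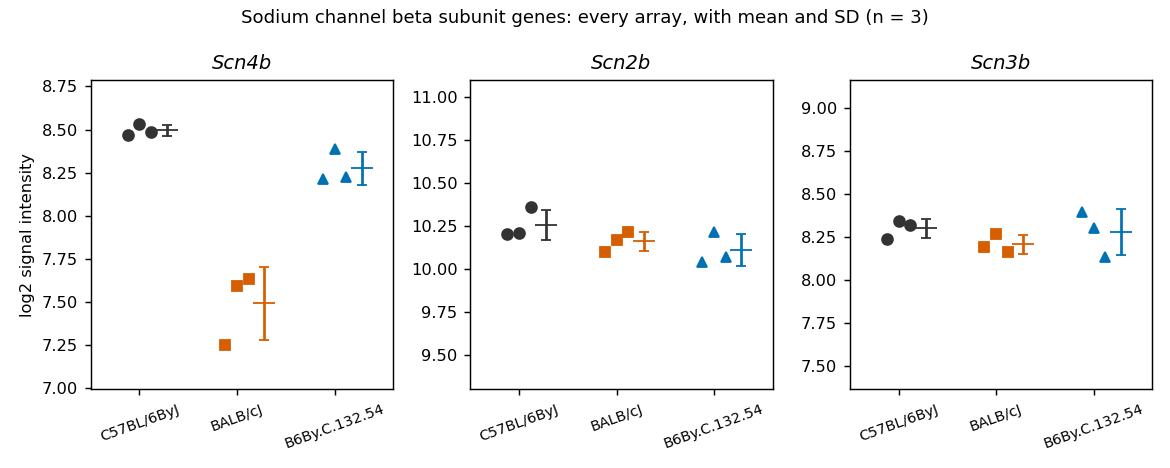
Log2 signal intensity of the brightest probe set of the sodium channel beta subunit genes Scn4b, Scn2b and Scn3b on each of the 9 arrays (points), with the strain mean and SD beside them (n = 3; each panel spans the same 1.8 log2 units). The Scn4b arrays of BALB/cJ, at 7.25 to 7.63, lie apart from the other strains, while the strains overlap for Scn2b and Scn3b.

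The other beta subunit genes did not pass. Scn2b, whose protein also binds the pore by a disulfide bond, is the next measured protein-coding gene before Scn4b on chromosome 9. Its brightest probe set read 10.20, 10.20 and 10.36 in C57BL/6ByJ, 10.10, 10.17 and 10.21 in BALB/cJ, and 10.04, 10.21 and 10.07 in B6By.C.132.54. The strains overlapped, and the BALB/cJ difference was -0.09 ± 0.0875 (SE; interval -0.29 to 0.10; limma adjusted p = 0.938). Scn3b, which encodes a beta subunit bound without a disulfide bond, differed by -0.09 ± 0.0902 (SE; limma adjusted p = 0.945). None of the other probe sets of Scn2b and Scn3b passed.

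The genes around Scn4b were read as well, because the gene lies in a row with Scn2b. Of the 10 measured protein-coding genes on either side of Scn4b, with 44 probe sets in all, none was called between BALB/cJ and C57BL/6ByJ (limma), and 0 of the 44 had an unadjusted p under 0.05. Over all probe sets 1.43% were called, and 7.58% had an unadjusted p under 0.05. Several of these neighbours, such as Cd3g (2.68), Cd3d (2.97) and Il10ra (3.12), had even their brightest probe set below the median level of all probe sets (3.97). Signal there is close to background, so a difference in these genes could be missed. The reference sequences upstream of the starts of Scn4b and Scn2b are shown because these neighbours, 20748 bases apart by their annotated starts, stood apart in the array values. Each is the 250 bases before the start on the plus strand, from RefSeq (GRCm38.p6, the C57BL/6J reference), at chr9:45138374-45138623 for Scn4b and chr9:45117626-45117875 for Scn2b. Capitals mark each CG dinucleotide, which reads the same on both strands.
Scn4b: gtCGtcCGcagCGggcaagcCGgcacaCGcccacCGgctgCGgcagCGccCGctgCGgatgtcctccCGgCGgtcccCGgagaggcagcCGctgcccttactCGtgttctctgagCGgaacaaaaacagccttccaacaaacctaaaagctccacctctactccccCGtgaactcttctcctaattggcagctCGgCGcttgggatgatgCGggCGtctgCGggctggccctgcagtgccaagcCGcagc
Scn2b: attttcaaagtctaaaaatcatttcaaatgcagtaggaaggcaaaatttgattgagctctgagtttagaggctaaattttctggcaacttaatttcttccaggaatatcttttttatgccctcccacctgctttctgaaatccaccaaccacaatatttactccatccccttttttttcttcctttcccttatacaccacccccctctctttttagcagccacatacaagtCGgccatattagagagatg
The Scn4b window holds 23 CG dinucleotides and 66.0% G and C, and the Scn2b window holds 1 and 38.4%. Of 32851 windows of this length in the table, 13.3% hold at least 23, 92.1% hold at least 1, and the median is 6. The letters TATAAA, on either strand, stand in neither window and in 12.4% of all windows. These are reference letters; the alleles of BALB/cJ and B6By.C.132.54 were not analysed here, and the array values do not bear on which of these bases matter.

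Scn4b is known for high expression in striatal projection neurons, so markers of brain regions and cell types were set beside it. None of the 5 measured striatal markers passed (median difference 0.14 in BALB/cJ; 0 called by limma). Their summed intensity was 1297 to 1403 in C57BL/6ByJ, 1354 to 1622 in BALB/cJ and 1215 to 1389 in B6By.C.132.54. Such sums, here and below, are weighted to the brightest markers of a list, here Penk, and do not count cells. Of 6 cortical and hippocampal pyramidal markers, Slc17a7, a vesicular glutamate transporter gene, was lower in BALB/cJ than in both other strains (-1.45 against C57BL/6ByJ, limma adjusted p = 0.00272), and none of the other 5 was called. The summed intensity of these 6 was 1142 to 1461, 1177 to 1194 and 1213 to 1399 in the order above. In the same direction were 2 of 7 microglia markers (C1qb and C1qc) and, against C57BL/6ByJ alone, 1 of 6 endothelial and pericyte markers (Cldn5), while 1 of 8 astrocyte markers (Gfap) was higher. Rgs5, a pericyte marker, was called between B6By.C.132.54 and BALB/cJ only (-0.56, limma adjusted p = 0.0361). Over all probe sets 1.43% were called in BALB/cJ against C57BL/6ByJ and 1.28% in B6By.C.132.54 against BALB/cJ (limma). The summed intensity was 1190 to 1332, 1047 to 1224 and 1204 to 1399 for the microglia list, and 706 to 727, 684 to 740 and 598 to 687 for the endothelial list. For the astrocyte list it was 6911 to 7229, 6724 to 6817 and 6189 to 7157. The part of these in the Scn4b difference was not tested. None of the neuron, interneuron, thalamus, cerebellum, oligodendrocyte, precursor, choroid plexus and blood markers was called in any comparison without the replicate block (limma). With the block, the oligodendrocyte marker Mal was lower in BALB/cJ than in C57BL/6ByJ (-0.44; limma adjusted p = 0.0349), and the microglia marker Tyrobp was higher in B6By.C.132.54 than in BALB/cJ (0.55; limma adjusted p = 0.0366).

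Among the sodium channel pore genes, none passed. They are Scn1a, important in inhibitory interneurons, Scn2a, of excitatory neurons, Scn3a, most abundant before birth, and Scn8a, the main channel of axon initial segments and nodes. Among the brightest probe sets of the class, Scn8a had the lowest p of the F test over the 3 strains. It read 8.56, 8.64 and 8.39 in C57BL/6ByJ, 8.84, 8.69 and 8.77 in BALB/cJ, and 8.56, 8.63 and 8.37 in B6By.C.132.54. All BALB/cJ arrays of this probe set lay above those of both other strains. The difference from C57BL/6ByJ was 0.24 ± 0.101 (SE; interval 0.02 to 0.46; limma adjusted p = 0.597), and B6By.C.132.54 differed from BALB/cJ by -0.25 ± 0.101 (limma adjusted p = 0.578). A second Scn8a probe set was also higher in all BALB/cJ arrays than in C57BL/6ByJ (0.19), and the other 3 overlapped. Brightest probe sets of Scn1a, Scn2a and Scn3a differed by -0.20, -0.10 and -0.07 between BALB/cJ and C57BL/6ByJ, with overlapping strains.

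**Figure D2:**
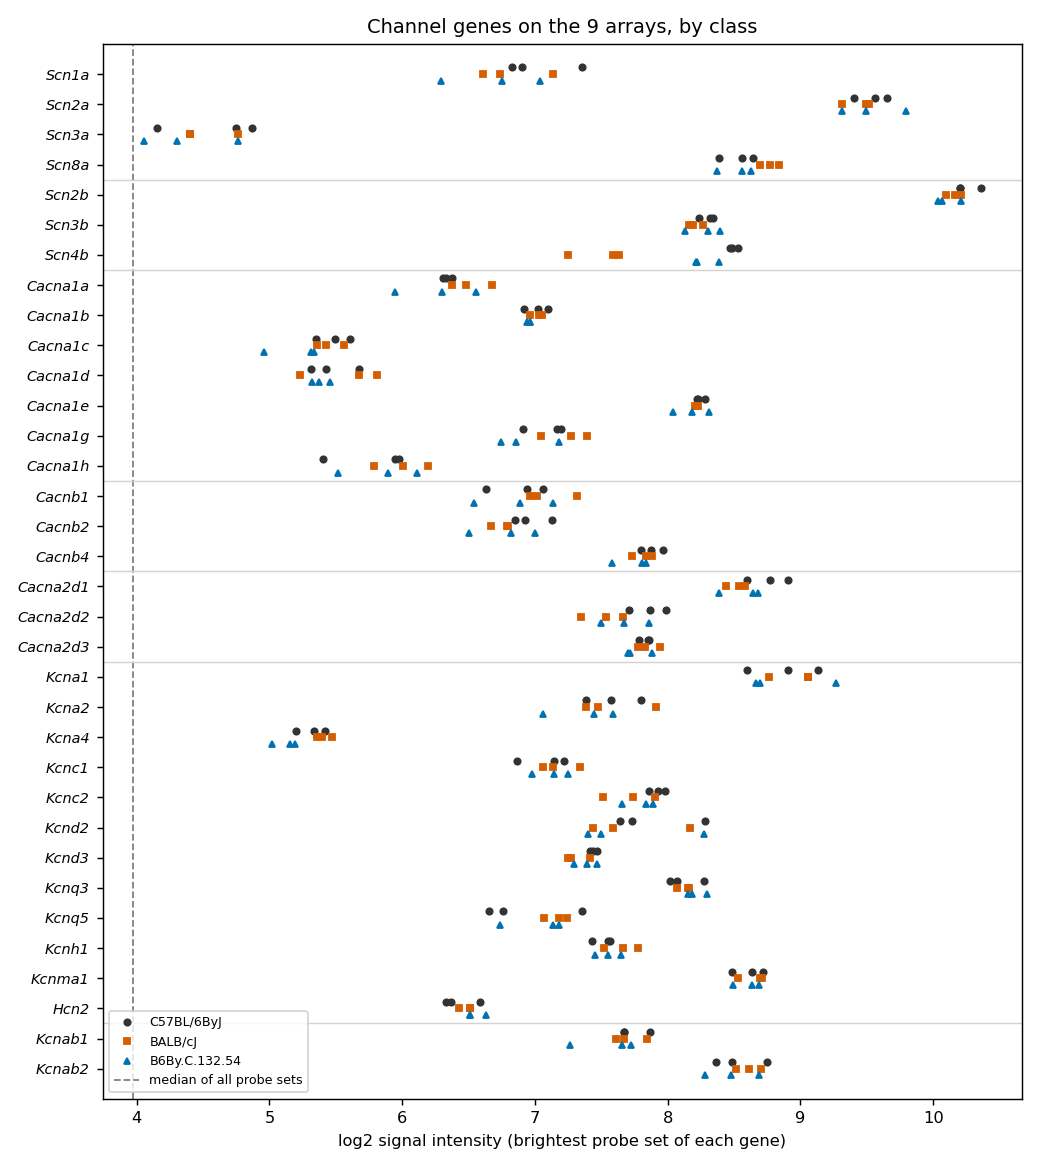
Log2 signal intensity of the brightest probe set of the 34 channel genes (rows, with lines between classes) on each array, by strain; the dashed line is the median of all probe sets (3.97). BALB/cJ stands clear of both other strains downward for Scn4b and upward, by less, for Scn8a.

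Of the calcium channel pore genes, none passed either. Cacna1a and Cacna1b, which encode the channels of fast transmitter release, differed by 0.17 and 0.0024 between BALB/cJ and C57BL/6ByJ. The lowest F-test p among the brightest probe sets of this class was that of Cacna1c, on chromosome 6. This is the L-type channel gene of dendrites and cell bodies. It read 5.35, 5.61 and 5.49 in C57BL/6ByJ, 5.36, 5.56 and 5.43 in BALB/cJ, and 4.96, 5.31 and 5.33 in B6By.C.132.54. The parental strains overlapped, and all B6By.C.132.54 arrays lay below those of both. B6By.C.132.54 differed from C57BL/6ByJ by -0.28 ± 0.119 (SE; interval -0.55 to -0.02; limma adjusted p = 0.915), and the other Cacna1c probe set differed by -0.08. The brightest probe sets of Cacna1d, a second L-type gene, Cacna1e, of R-type current, and the low-threshold T-type genes Cacna1g and Cacna1h differed by 0.10, -0.03, 0.15 and 0.22 between BALB/cJ and C57BL/6ByJ.

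The calcium channel beta subunit genes encode cytoplasmic proteins that bring the pore to the membrane. Cacnb2 had the lowest F-test p among the brightest probe sets of this class. It read 6.93, 7.13 and 6.85 in C57BL/6ByJ, 6.79, 6.67 and 6.79 in BALB/cJ, and 6.82, 7.00 and 6.50 in B6By.C.132.54. BALB/cJ lay below C57BL/6ByJ on all arrays, by 0.22 in the mean (difference -0.22 ± 0.128, SE; limma adjusted p = 0.809), and B6By.C.132.54 overlapped both. Cacnb1 and Cacnb4 differed by 0.22 and -0.06. The largest standard error among all members (0.362, from the spread within strains) was that of a Cacnb4 probe set (1436912_at) that read 7.98, 7.60 and 6.95 in C57BL/6ByJ, 8.26, 7.21 and 7.25 in BALB/cJ, and 8.24, 7.25 and 7.07 in B6By.C.132.54, highest on replicate 1 of each strain. A dimmer Cacnb4 probe set (1452089_at) also scattered. It read 6.49, 5.87 and 7.11 in C57BL/6ByJ, 6.42, 6.69 and 6.53 in BALB/cJ, and 5.57, 6.42 and 5.68 in B6By.C.132.54. B6By.C.132.54 minus C57BL/6ByJ came to -0.60 ± 0.285 (SE; interval -1.23 to 0.03; limma adjusted p = 0.915) there, against -0.14 and 0.0058 at the brighter Cacnb4 probe sets.

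The alpha2delta genes encode extracellular subunits that raise the number of calcium channels at synapses, and the proteins of Cacna2d1 and Cacna2d2 bind gabapentin. Cacna2d2, on chromosome 9 like the sodium channel beta genes, read 7.87, 7.71 and 7.99 in C57BL/6ByJ, 7.35, 7.66 and 7.53 in BALB/cJ, and 7.50, 7.86 and 7.67 in B6By.C.132.54. BALB/cJ lay below C57BL/6ByJ on all arrays and B6By.C.132.54 overlapped both. The BALB/cJ difference of -0.34 ± 0.122 (SE; interval -0.61 to -0.07) did not pass (limma adjusted p = 0.426), and both other probe sets lay below the median level of all probe sets. Cacna2d1 was also lower on all BALB/cJ arrays than on those of C57BL/6ByJ (-0.24; limma adjusted p = 0.671), and its other probe set above the median differed by -0.10. Cacna2d3, read by 1 probe set, differed by 0.02.

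Potassium channel pore genes were the largest class, with 36 probe sets for 12 genes counting HCN2, and none passed. The lowest p among the brightest probe sets was that of Kcna4, an A-type channel gene of axons. It read 5.34, 5.20 and 5.42 in C57BL/6ByJ, 5.36, 5.47 and 5.40 in BALB/cJ, and 5.20, 5.02 and 5.16 in B6By.C.132.54, the last strain lying below both others on all arrays. It differed by -0.28 ± 0.0903 (SE) between B6By.C.132.54 and BALB/cJ (limma adjusted p = 0.308). Kcna2, a delayed rectifier gene of axons, had 1 probe set (1439872_at) that read 7.14, 6.94 and 7.14 in C57BL/6ByJ, 7.33, 7.37 and 7.42 in BALB/cJ, and 6.87, 7.30 and 6.88 in B6By.C.132.54. BALB/cJ lay above both other strains there, by 0.30 over C57BL/6ByJ and 0.36 over B6By.C.132.54 (limma adjusted p = 0.559 and 0.37). Without B6By.C.132.54 replicate 2 the latter passed (difference -0.50; limma adjusted p = 0.0428; range over 16 alternatives 0.0428 to 0.746). The brightest Kcna2 probe set differed by 0.0060 between the parental strains.

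Kcna1, which with Kcna2 forms channels beside the nodes of myelinated axons, differed by 0.08 between BALB/cJ and C57BL/6ByJ. For the fast-spiking channel genes Kcnc1 and Kcnc2 this difference was 0.10 and -0.20. Kcnd2 and Kcnd3, the A-type channels of dendrites and cell bodies, differed by -0.16 and -0.13, and a dimmer Kcnd2 probe set (1422834_at) was lower on all B6By.C.132.54 arrays than on those of BALB/cJ (-0.46; limma adjusted p = 0.367). The M-current genes Kcnq3 and Kcnq5 differed by 0.0097 and 0.24, and Kcnh1, of the ether-a-go-go family, by 0.14. Kcnma1, the large-conductance channel opened by calcium and voltage, differed by 0.03, and Hcn2, of the pacemaker cation current, by 0.06. All these had overlapping parental arrays at their brightest probe sets. The beta subunit genes Kcnab1 and Kcnab2, whose proteins bind axonal channels, did not pass. Kcnab1, with the lower p, read 7.87, 7.67 and 7.67 in C57BL/6ByJ, 7.61, 7.84 and 7.67 in BALB/cJ, and 7.66, 7.72 and 7.26 in B6By.C.132.54, and its strains overlapped (parental difference -0.03 ± 0.127, SE; limma adjusted p = 0.995).

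**Figure D3:**
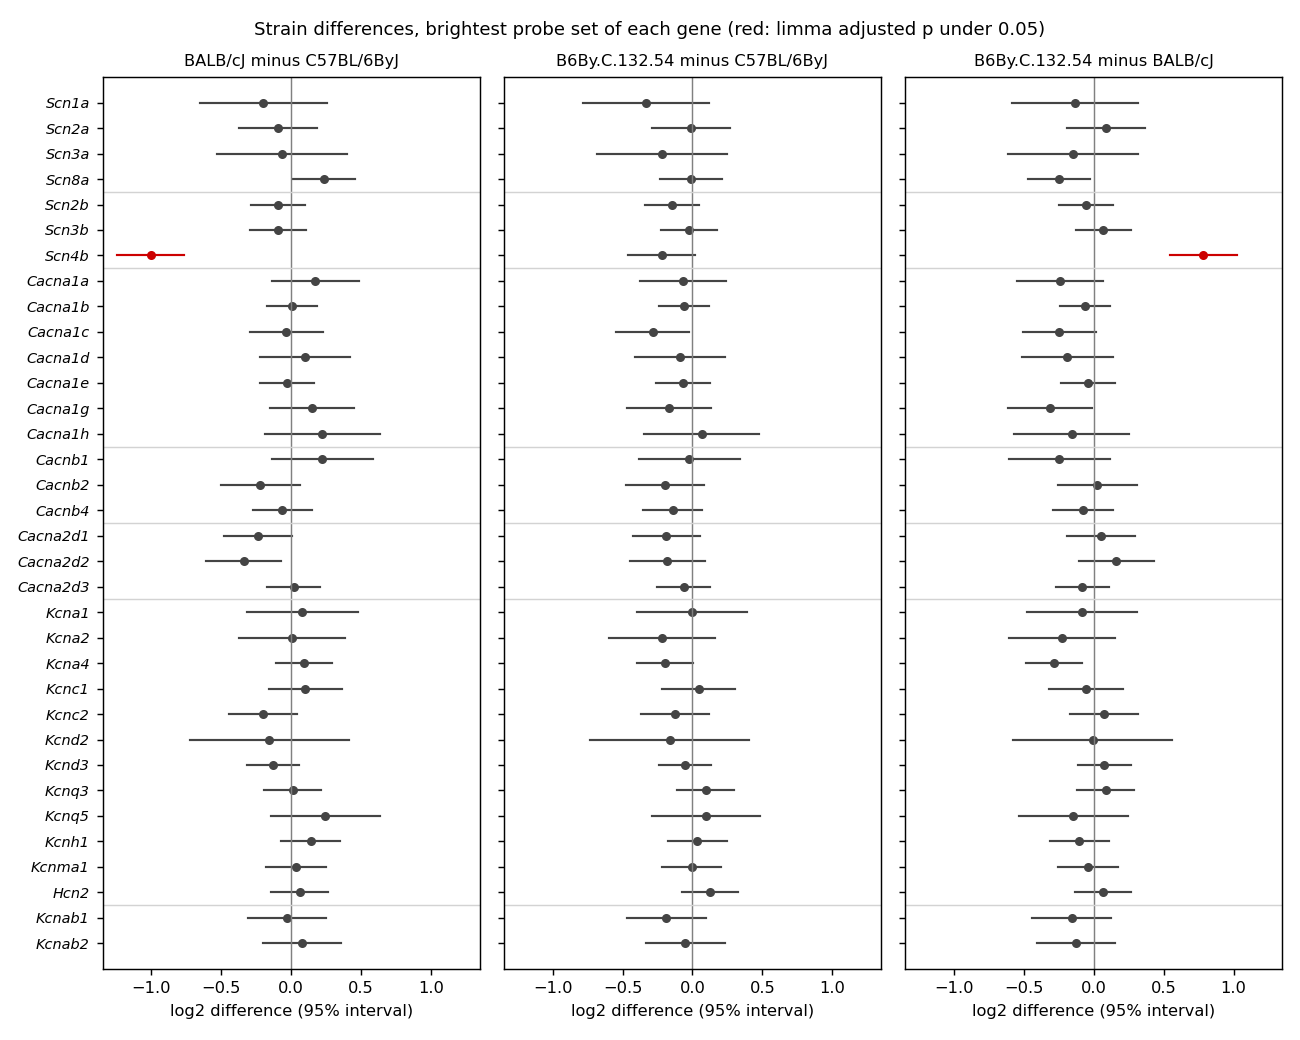
Log2 difference between strains, with its 95% interval from limma, for the brightest probe set of each of the 34 channel genes (rows, with lines between classes). Scn4b is the 1 gene called (red), at -1.01 in BALB/cJ against C57BL/6ByJ and 0.78 in B6By.C.132.54 against BALB/cJ.

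Counted over all 95 channel probe sets, 1 was called between BALB/cJ and C57BL/6ByJ (1.05%), where 1.43% of all probe sets were called. The moderated F test over the 3 strains also called 1, Scn4b (adjusted p = 0.00113), where 1.28% of all probe sets were called. At an unadjusted p under 0.05 there were 5 channel probe sets, of Scn4b, Scn8a, Cacna1a, Cacna2d2 and Kcna2, or 5.26% against 7.58% of all probe sets. The arrays of these strains did not overlap at 7 channel probe sets (7.37%, against 12.6% of all). By the F test 4 had an unadjusted p under 0.05 (4.21%, against 6.85% of all). These channel shares, each below that of all probe sets without a block, rest on few probe sets. At an unadjusted p under 0.05, B6By.C.132.54 against BALB/cJ went the other way (10.5%, against 7.5% of all). With the replicate number as a block the calls among channel probe sets were 1, 0 and 1 in the 3 comparisons and 1 by the F test, where 2.12%, 0%, 1.85% and 1.86% of all probe sets were called. At an unadjusted p under 0.05 the block gave 10 channel probe sets between BALB/cJ and C57BL/6ByJ (10.5%, against 10.9% of all). By the F test it gave 17 (17.9%, against 11.2% of all), so that this share turned from below to above that of all probe sets. The median difference of the 95 was 0.01, against 0.02 for all probe sets, with 56 higher and 39 lower in BALB/cJ. For 94 of the 95 the 95% interval lay within 1 on the log2 scale on either side of 0, a 2-fold change, and for 73 within 0.5. The exception at 1 was Scn4b. A missed threshold does not show that the strains were alike.

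Probe sets of 1 gene often differed in sign between BALB/cJ and C57BL/6ByJ. Of 23 channel genes with at least 2 probe sets at or above the median level, 12 had the same sign in all of them, 7 higher and 5 lower in BALB/cJ. Averaged over the genes of a class by their brightest probe sets, the BALB/cJ difference was -0.40 for sodium channel beta genes (SD between arrays 0.0745). That class includes Scn4b at -1.01, while its other genes, Scn2b and Scn3b, each differed by -0.09. The class average was -0.19 for alpha2delta genes (SD 0.0836), and between -0.03 and 0.08 for the other 5 classes. When each gene was summarised by its median probe set, the alpha2delta value was -0.0101.

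The line B6By.C.132.54 was then set against its background strain C57BL/6ByJ. Of the 95 channel probe sets 0 were called, and of all probe sets 0% (limma). At an unadjusted p under 0.05 there were 2 (2.11%, against 3.89% of all), Cacna1c and the dimmer Kcnd2 probe set, both lower (2.07% of all were lower). With the replicate number as a block there were 10 (10.5%, against 7.44% of all), 9 of them lower (9.47%, against 4.32% of all). Both shares then lay above those of all probe sets, with 0 called after adjustment (limma). The arrays did not overlap at 3 channel probe sets, of Scn4b, Cacna1c and Kcna4 (3.16%, against 6.62% of all). The members on chromosome 6 are Cacna1c, Kcna1 and Kcnd2, whose brightest probe sets differed by -0.28, -0.0022 and -0.16. Many channel probe sets read slightly lower in B6By.C.132.54. Of the 74 at or above the median level 60 did (81.1%, median -0.07), against 68.0% of all probe sets at that level (median -0.06). Without B6By.C.132.54 replicate 3, the array with the narrowest spread, 43 of the 74 did (58.1%, against 57.6% of all). Without its replicate 1, 46 did (62.2%, against 62.6% of all). Without its replicate 2, however, 62 did (83.8%, against 72.6% of all). Leaving out C57BL/6ByJ replicate 1, 2 or 3 gave 82.4%, 68.9% and 70.3%, against 71.3%, 62.1% and 65.0% of all. With arrays centred on their median 61 did (82.4%, against 70.0% of all). After quantile normalization 38 did (51.4%, against 50.7% of all).

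**Figure D4:**
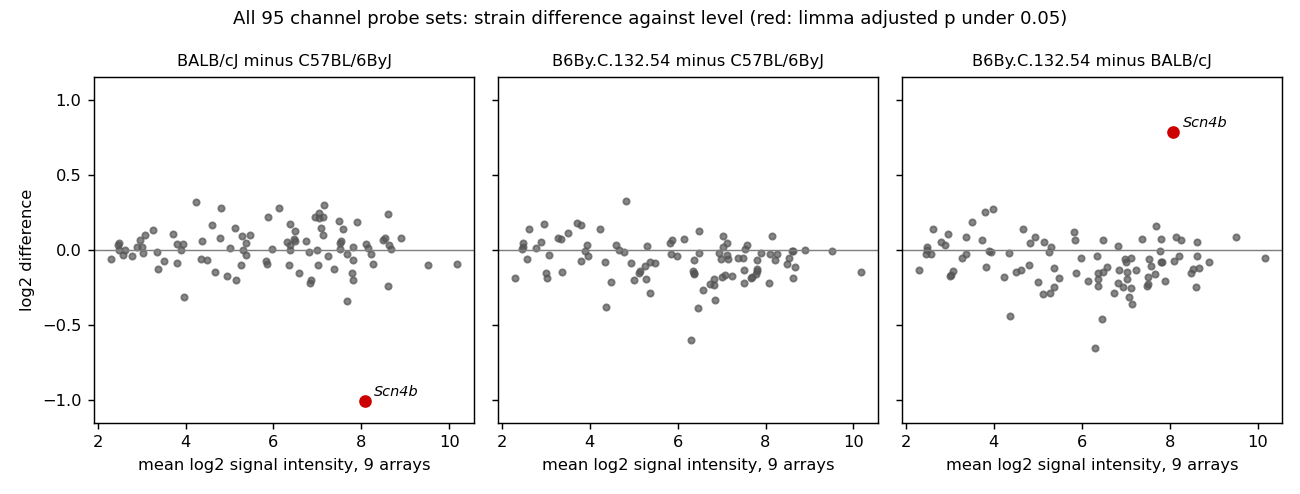
Log2 difference between strains against the mean log2 signal intensity over 9 arrays, for all 95 channel probe sets (points; red where limma gave an adjusted p under 0.05). Scn4b lies apart in both comparisons with BALB/cJ. In the middle panel, without a call, 60 of the 74 probe sets at or above the median level lie below 0. That is 81.1%, against 68.0% of all probe sets at that level. After quantile normalization, which is not drawn, the shares were 51.4% and 50.7%.

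B6By.C.132.54 against BALB/cJ called 1 of the 95, Scn4b, where 1.28% of all probe sets were called. At an unadjusted p under 0.05 there were 10 (10.5%, against 7.5% of all), 8 of them lower in B6By.C.132.54 (8.42%, against 4.49% of all). With the block there were 14 (14.7%, against 11% of all), 12 of them lower (12.6%, against 6.84% of all). The arrays did not overlap at 7 (7.37%, against 9.51% of all). Of the 10 at an unadjusted p under 0.05 without the block, 2 were higher, Scn4b and a Cacna1e probe set below the median level. The 8 lower were probe sets of Scn1a, Scn8a, Cacna1g, Cacnb4, Kcna2, Kcna4, Kcnd2 and Kcnab1. Their differences ran from -0.65 for Cacnb4 to -0.25 for Scn8a, and none passed after adjustment (lowest limma adjusted p = 0.308, for Kcna4).

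Further channel genes outside the list were read from the same fit: other pore subunits, auxiliary subunits and anchoring partners, 62 genes with 121 probe sets. Of the 121, 1 fell in BALB/cJ and 0 rose against C57BL/6ByJ, where 1.43% of all probe sets were called. It was a probe set of Dpp10 (1436661_at, chromosome 1), whose protein is an auxiliary subunit of the Kcnd A-type channels. It read 7.04, 6.97 and 6.90 in C57BL/6ByJ, 6.55, 6.25 and 6.40 in BALB/cJ, and 6.96, 6.89 and 6.85 in B6By.C.132.54, so that BALB/cJ lay below both others. Its difference from C57BL/6ByJ was -0.57 ± 0.095 (SE; limma adjusted p = 0.0106), and B6By.C.132.54 was 0.50 higher than BALB/cJ (limma adjusted p = 0.0264). The brighter Dpp10 probe set differed by -0.21 and was not called (limma adjusted p = 0.933). The first call was lost without C57BL/6ByJ replicate 1 or 2 or BALB/cJ replicate 2 or 3 (limma adjusted p from 0.0505 to 0.0604). The second was lost in 7 of 16 alternatives, which left out C57BL/6ByJ replicate 2, BALB/cJ replicate 2 or 3 or any B6By.C.132.54 array, or used only these strains (limma adjusted p from 0.0526 to 0.129). With the replicate number as a block, Kcnh7, of the ether-a-go-go-related potassium channels, was higher in BALB/cJ (0.46; limma adjusted p = 0.0392, against 0.0986 when no block was fitted). B6By.C.132.54 minus C57BL/6ByJ gave 0 calls among the 121 and B6By.C.132.54 minus BALB/cJ gave 1, where 0% and 1.28% of all were called (limma). At an unadjusted limma p under 0.05 there were 12 of the 121 in BALB/cJ minus C57BL/6ByJ, against 7.58% of all probe sets. There were 3 in B6By.C.132.54 minus C57BL/6ByJ (against 3.89% of all) and 11 in B6By.C.132.54 minus BALB/cJ (against 7.5% of all). With the block these counts were 17, 7 and 16, against 10.9%, 7.44% and 11% of all.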

How the data were processed

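Brain hemisphere RNA of 3 mouse strains was hybridised to Affymetrix mouse expression arrays. The authors deposited 1 linear signal intensity per probe set and array, made with GCOS and RMA, versions not given, per the submitters' processing notes. Background treatment, normalization steps and genome build are not given in the sources used here. Each intensity was converted to log2, with nothing added. Of 45101 rows 64 controls were left out. The platform annotation gave 1 symbol for 34945 probe sets, several for 932 and none for 9160. Those with several were tested but matched to no gene. Symbols were updated by Entrez identifier through RefSeq of GRCm38.p6.

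Strain means were fitted over all 9 arrays with limma 3.58.1 (R 4.3.3; lmFit, eBayes, two-sided, 6 residual degrees of freedom), tested on simulated data. Precision is limited by 3 arrays per strain. Of the 95 channel probe sets, 39 had an equal value on at least 2 arrays, as deposited. The work was done in 3 batches with all strains in each, per the design text. Arrays with the same replicate number deviated together in every pair of strains (correlation over all probe sets 0.147 to 0.542), so the replicate number was fitted as a block as an alternative.

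Members and lists were chosen with earlier results of these data known. Named with values on all arrays were called member probe sets and, in each class, the brightest probe set with the lowest F-test p. Scn2b, outside that rule, was also given on all arrays. Single probe sets of Kcna2, Cacnb4, Kcnd2 and Cacna2d1 were added after their values were seen, those of Kcnd2 and Cacna2d1 without array values. Other alternatives were quantile normalization, median centring, 16 added before log2, no dim probe sets, a variance trend, only 2 strains, and each array left out in turn.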

Additional observations from a re-analysis of the deposited data

How the results depend on the processing

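With the replicate block, quantile normalization, median centring, 16 added before log2, dim probe sets left out, a variance trend or only the 2 strains compared, the count of channel probe sets called was 1, Scn4b, in both BALB/cJ comparisons (also by the F test, which was not run on 2 strains), and 0 between B6By.C.132.54 and C57BL/6ByJ. The replicate block gave 1, 0 and 1. Among the other channel and marker genes listed it added calls of Kcnh7, Mal and Tyrobp, and over all probe sets the calls between BALB/cJ and C57BL/6ByJ went from 644 to 953. Leaving out 1 array gave counts of 1 and 0 as well, except 1 to 2 for B6By.C.132.54 against BALB/cJ, where the second was Kcna2. Scn4b had an adjusted p from 0.000206 to 0.00539 against C57BL/6ByJ and from 0.00098 to 0.0277 for B6By.C.132.54 against BALB/cJ.

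Some uncalled differences close to 0 changed sign, and the cause was not tested. After quantile normalization these were Scn8a in B6By.C.132.54 minus C57BL/6ByJ (0.0765) and Kcnab1 in BALB/cJ minus C57BL/6ByJ (0.0085). With 1 array left out the first ranged from -0.0782 to 0.0677 and the second from -0.0977 to 0.0357. Likewise Cacna1c in BALB/cJ minus C57BL/6ByJ ranged from -0.103 to 0.0252, and Cacnb2 in B6By.C.132.54 minus BALB/cJ from -0.0875 to 0.162. With each gene as its median probe set, the alpha2delta class moved to -0.0101 in BALB/cJ minus C57BL/6ByJ. In B6By.C.132.54 minus BALB/cJ it moved to -0.0558, and the potassium pore class to -0.103. For Cacna2d1 and Cacna2d2 that median falls on probe sets below the median level of all probe sets. Of the 74 channel probe sets at or above the median level, 60 read lower in B6By.C.132.54 than in C57BL/6ByJ (81.1%, against 68.0% of all). The count was 61 after median centring (82.4%, against 70.0%) and 38 after quantile normalization (51.4%, against 50.7%), a check chosen after seeing the data.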
